A study of Mus musculus with 20 samples.

Results

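The cell cycle and proliferation genes described here are 42 of the 54532 genes in the count tables of mouse plantaris muscle, 16 of them acting in S phase and 26 in mitosis. They were taken as a list of gene symbols, with no threshold on a measured value but with earlier results of these data known, and each symbol matched 1 Ensembl gene present in both count tables. Ccna2, Mki67 and Top2a, which also act in S phase, were counted with mitosis. A cell that divides first loads the helicase of the Mcm proteins on its replication origins, then fires them and copies its DNA while cyclin E and the enzymes of nucleotide supply are high, and afterwards builds a spindle under Cdk1, the Polo and Aurora kinases and the spindle checkpoint. Muscle fibres do not divide, whereas satellite cells, the stem cells of muscle, and the immune, endothelial and connective tissue cells of a muscle can. Which cells the transcripts came from was not measured here. Overload of a muscle is known to activate satellite cells, whose progeny fuse with the fibres.

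The muscles came from male C57BL/6J mice aged 5 months. Bilateral mechanical overload (MOV), an operation that takes out a portion of the gastrocnemius and soleus and so loads the plantaris more, was compared with bilateral sham surgery. All muscles, controls included, received 50 µL of lentivirus with a TurboGFP reporter under a mouse CMV promoter, which does not restrict expression to muscle fibres. The left plantaris was given the scrambled control and the right plantaris the miR-1a-3p mimic, and muscles were collected after 10 days. Each group had 5 libraries and is called by its surgery and virus (sham control and mimic, MOV control and mimic), and the labels do not say which libraries of a surgery came from the same mouse. Levels are in CPM, counts scaled to the library size after TMM correction for the make-up of each library, and libraries are listed in the order of their replicate numbers.

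Total counts ran from 12036360 to 23056525 per library. The libraries numbered 1 of both sham groups stood apart from the other 4 of their groups, with summed fibroblast markers of 1195 CPM in sham control 1 and 1731 CPM in sham mimic 1 against 5605 to 11348 CPM in the other 8 sham libraries, and with the highest muscle fibre marker sums of all libraries, 218808 and 215190 CPM. MOV mimic 4 had the fewest detected genes, 15561 against 18768 to 22300 in the others. The scores, the medians of the members and the member values that moved most are also given without the sham libraries numbered 1. The 12 muscle fibre markers, all detected in every group, summed to 84918 CPM or more in each library.

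The bases before the start of 8 members are shown because cell cycle genes are known to share promoter elements, and because they include the S phase genes that one of 3 tests called higher after MOV (Mcm6, Rrm2), members with a log2 fold change below 0 (Mcm2, Rrm1) and mitotic genes in which the elements lie near the start (Cdc20, Cdk1, Kif11, Ube2c). Each line gives the 150 bases upstream of the RefSeq start, 5′ to 3′ on the strand of the gene, in GRCm38.p6, and capitals mark the CHR element TTTGAA and its variant form TTCGAA, the box CCAAT, and E2F-like elements, which were searched as the letters TTGGCGC and in the other forms with the letters TTCCCGC and likewise with the letters TTCGCGC, all on either strand.
Mcm6 (chr1:128359706-128359855, minus strand): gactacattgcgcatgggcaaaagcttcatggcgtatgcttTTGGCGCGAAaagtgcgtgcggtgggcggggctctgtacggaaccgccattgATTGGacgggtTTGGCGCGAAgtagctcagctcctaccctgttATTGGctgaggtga
Rrm2 (chr12:24708104-24708253, plus strand): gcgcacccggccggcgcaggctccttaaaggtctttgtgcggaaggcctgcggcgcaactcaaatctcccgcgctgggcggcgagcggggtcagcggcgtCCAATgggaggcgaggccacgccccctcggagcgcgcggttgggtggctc
Mcm2 (chr6:88898781-88898930, minus strand): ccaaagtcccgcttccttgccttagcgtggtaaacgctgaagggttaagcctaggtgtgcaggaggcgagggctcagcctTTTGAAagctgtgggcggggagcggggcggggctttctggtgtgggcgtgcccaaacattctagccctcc
Rrm1 (chr7:102441545-102441694, plus strand): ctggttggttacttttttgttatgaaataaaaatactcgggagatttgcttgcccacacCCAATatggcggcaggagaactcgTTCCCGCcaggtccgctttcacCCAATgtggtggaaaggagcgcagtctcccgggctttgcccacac
Cdc20 (chr4:118437344-118437493, minus strand): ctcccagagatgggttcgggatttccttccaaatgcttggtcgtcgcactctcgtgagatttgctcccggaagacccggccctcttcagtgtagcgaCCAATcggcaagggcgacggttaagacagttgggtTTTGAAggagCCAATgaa
Cdk1 (chr10:69352913-69353062, minus strand): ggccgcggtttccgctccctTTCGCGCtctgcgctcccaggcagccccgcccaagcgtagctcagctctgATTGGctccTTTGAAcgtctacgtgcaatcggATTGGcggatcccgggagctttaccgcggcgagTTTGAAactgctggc
Kif11 (chr19:37376232-37376381, plus strand): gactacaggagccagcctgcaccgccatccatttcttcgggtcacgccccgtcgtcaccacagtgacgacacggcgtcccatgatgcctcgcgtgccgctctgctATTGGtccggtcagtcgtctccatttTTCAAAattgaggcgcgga
Ube2c (chr2:164769779-164769928, plus strand): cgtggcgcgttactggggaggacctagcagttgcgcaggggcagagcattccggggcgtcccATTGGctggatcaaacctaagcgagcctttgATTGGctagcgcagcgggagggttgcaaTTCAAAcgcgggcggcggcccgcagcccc

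A RefSeq promoter was found for 35 of the 42 members, and the 250 bases before the start were searched. CCAAT boxes were present in 19 of 21 mitotic members (90.5%) and in 9 of 14 S phase members (64.3%), against 37.5% of 27025 genes with a promoter. CHR elements were in 9 of 21 mitotic members (42.9%) and 3 of 14 S phase members (21.4%), against 19.6% of all genes. In each of these 12 members a CCAAT box was present as well, and 80% of all 35 members had such a box. Of all genes 5284 had a CHR element and 2142 (7.93%) had both. E2F-like elements were in 5 of 14 S phase members (35.7%) and 4 of 21 mitotic members (19%), against 7.68% of all genes. In the Mcm6 promoter E2F-like matches of opposite strands overlap each other. These matches are descriptions of letters and say nothing of which factor binds.

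Levels per kilobase of exon, averaged over 20 libraries, placed Pcna, the sliding clamp of DNA polymerases, first with 12.4 CPM per kilobase and Rrm1, the large subunit of ribonucleotide reductase, next with 9.53. Ube2c, a ubiquitin carrier of the anaphase-promoting complex, was the highest mitotic member with 4.96 CPM per kilobase. At the other end were Cdc6, which loads the helicase at origins, with 0.223, Cenpf with 0.296 and Ttk with 0.342 CPM per kilobase. Ccne2, Top2a, Foxm1, Kif11, Aurka and 9 other members overlap another annotated gene, and Pcna, Tyms, Ccnb1 and Ccnb2 have named pseudogenes, so their counts may hold reads of these or have lost reads to them. Ccne1, Cdc6 and Bub1 were at 0 counts in 2 libraries each and Cenpe and Ttk in 1 each.

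Overload was the first comparison, and the question was whether overload changed the proliferation genes in muscle given control virus. The mitosis score, the mean log2 CPM of the 26 mitotic genes, was 0.12, 1.37, 2.03, 2.33 and 1.85 in sham control and 2.84, 2.37, 2.27, 1.67 and 1.49 in MOV control. Its mean was 1.54 ± 0.87 (SD, n = 5) in sham control and 2.13 ± 0.55 (SD, n = 5) in MOV control, a difference of 0.59. That difference was smaller than the pooled SD of 0.73, and the groups overlapped, as MOV control 4 and 5 were below sham control 3, 4 and 5. Without sham control 1 the difference was 0.23.

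The S phase score, over 16 genes, was 1.84, 2.52, 2.83, 2.93 and 2.64 in sham control and 3.19, 2.95, 3.13, 2.75 and 2.54 in MOV control. The means were 2.55 ± 0.43 and 2.91 ± 0.27 (SD, n = 5 each) and differed by 0.36, about the pooled SD of 0.36. Without sham control 1 the difference was 0.18. Sham control 1 was the lowest of its group in 34 of 42 members, and MOV control 1 the highest of its group in 24 of 42.

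**Figure D1:**
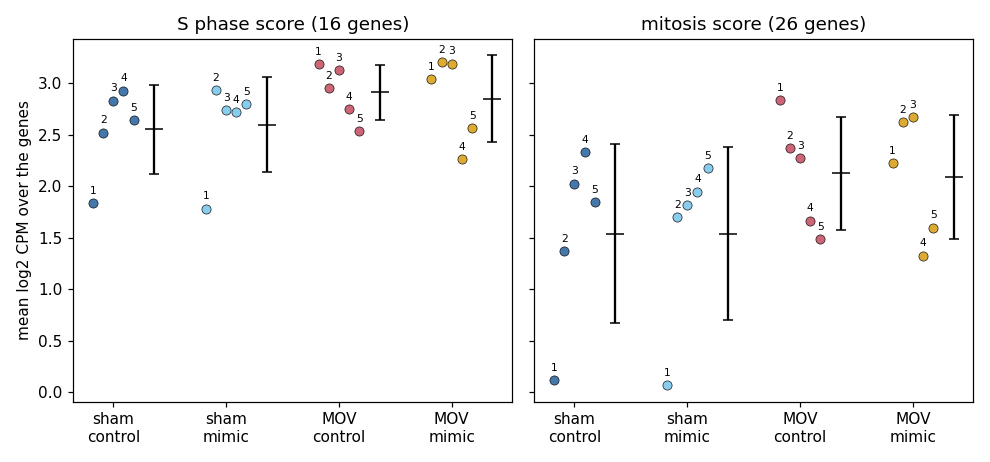
Mean log2 CPM of the 16 S phase genes (left) and the 26 mitotic genes (right) in each of the 20 libraries; points are libraries labelled with their replicate number, and bars give mean ± SD of 5 libraries. The libraries numbered 1 of sham control and sham mimic lie at 0.12 and 0.069 in the mitosis score, below all others, and the MOV libraries overlap the other sham libraries.

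Of the 42 members, all passed the filter on low counts and 38 had a log2 fold change above 0 between MOV control and sham control, with a median of 0.52 against 0.04 over all 14974 genes tested. No member reached an adjusted p under 0.05 in edgeR's quasi-likelihood test, in which 0.00668% of all genes were called, 1 gene. DESeq2 called no member either, against 6.1% of all genes, and voom with quality weights called 2 of 42, Mcm6 and Rrm2, both higher, against 6.32% of all genes in either direction. An unadjusted p under 0.05 was seen for 9 of 42 members (21.4%), near the 18.2% of all genes. No member had groups that did not overlap, which 4.88% of all genes did.

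The median of the members was 0.31 without sham control 1 and 0.81 without sham control 4. The count with an unadjusted p under 0.05 was 1 without MOV control 1, against 14.3% of all genes, and 3 without MOV control 2, against 16.6%. It was 3 also without sham control 1, 2 or 5, against 13.7%, 13.5% and 14.4% of all genes, and 13 (31.0%) without MOV control 5, against 22.6%. It was 10 of 42 in DESeq2, against 19.5% of all genes, and 18 of 42 (42.9%) in voom, against 27.4% of all genes.

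Leaving out sham control 1 brought the log2 fold change closer to 0 in 37 of 42 members, moved it by over 1.5 times or across 0 in 22 and changed its sign in 5. In S phase it became -0.26 for Cdc6, 0.11 for Cdc45, 0.22 for Mcm4 and 0.21 for Tyms, with Mcm2 and Pcna among the changed signs. In mitosis it became 0.28 for Mki67, 0.52 for Top2a, 0.31 for Ccnb1, 0.30 for Cdk1, 0.38 for Foxm1 and 0.25 for Aurkb. It became 0.12 for Bub1b, 0.39 for Ttk, 0.30 for Cdc20, 0.32 for Cenpf, 0.27 for Prc1, 0.30 for Nusap1 and 0.57 for Hmmr, and Kif20a, Kif23 and Tpx2 changed sign.

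Other single libraries moved members as well. Without MOV control 1, 20 of 42 moved by over 1.5 times or across 0, and of those at 0.5 or more the values became 0.20 for Mki67, 0.54 for Ccna2, 0.24 for Ccnb1, 0.44 for Ccnb2, 0.40 for Cdk1 and 0.20 for Foxm1, and 0.28 for Cdc20 and 0.40 for Cenpa. Without sham control 4, 16 of 42 moved, and the values became 0.85 for Mki67, 0.94 for Ccnb1, 0.93 for Cdk1, 0.97 for Foxm1, 0.82 for Cdc20, 0.96 for Cenpf and 1.36 for Hmmr. Each of the other 7 libraries of this comparison moved 4 to 8 members, with values of 0.45 for Bub1 and 0.25 for Ttk without MOV control 3, 0.41 for Foxm1 without sham control 2 and 1.12 for Ttk without sham control 5.

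Exact two-sided permutation tests of the 10 libraries, with 0.00794 as the smallest p possible, were read for the 21 members listed by role. In this comparison 2 of 21 had an unadjusted p under 0.05, Plk1 (0.0317) and Kif11 (0.0397). This share of 9.52% was below the 17% of all 14974 genes with such a p in the same test.

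Among cyclin E genes, Ccne1, a cyclin that starts S phase with Cdk2, was at 0.151, 0.945, 1.94, 1.51 and 1.3 CPM in sham control and 2.73, 3.31, 3.58, 1.64 and 1.16 CPM in MOV control. Ccne1 was below 2 CPM in all 5 sham control libraries and above it in MOV control 1, 2 and 3. Its log2 fold change was 1.13 ± 0.52 (SE, edgeR adjusted p = 0.271), the highest of the S phase members. Ccne2, the other cyclin E, was at 5.58, 5.79, 4.3, 4.9 and 6.71 CPM in sham control and 7.94, 5.24, 5.86, 2.84 and 5.45 CPM in MOV control, and its log2 fold change was 0.05 ± 0.26 (SE, edgeR adjusted p = 0.94). The MOV control libraries of Ccne2 lay on both sides of the sham control libraries.

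Of the 9 genes of origin licensing and the helicase, 7 had a log2 fold change above 0, with a median of 0.34, and edgeR and DESeq2 called none. The median was 0.21 without MOV control 3, 0.22 without sham control 1 and 0.52 without sham control 4. Mcm5, a helicase subunit, was at 1.21, 2.02, 4.19, 6.05 and 2.34 CPM in sham control and 7.21, 7.69, 4.93, 3.16 and 2.84 CPM in MOV control. Its log2 fold change was 0.76 ± 0.43 (SE, edgeR adjusted p = 0.38), with MOV control 1 and 2 above every sham control library and MOV control 3, 4 and 5 within their range. Mcm6, another subunit, was at 2.87, 8.75, 15.6, 14.9 and 13.2 CPM in sham control and 21.3, 20.4, 20.7, 22.8 and 14.8 CPM in MOV control. In Mcm6 only MOV control 5 lay below the highest sham control library, the log2 fold change was 0.90 ± 0.33 (SE, edgeR adjusted p = 0.177), and voom with quality weights gave an adjusted p of 0.0406.
Cdc6 was at 0.377, 1.39, 1.45, 2 and 1.37 CPM in sham control and 1.36, 0.601, 1.5, 2.21 and 0.582 CPM in MOV control, with a log2 fold change of -0.03 ± 0.49 (SE, edgeR adjusted p = 0.983). Cdt1, the partner of Cdc6 in licensing, had a log2 fold change of 0.92 ± 0.44 and Mcm3 of 0.48 ± 0.26 (SE), with edgeR adjusted p values of 0.289 and 0.354. Mcm2 stood near 0 with -0.01 ± 0.19 (SE), while Mcm4, Mcm7 and Cdc45 lay between 0.20 and 0.34.

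In the replication clamp and nucleotide supply, the log2 fold changes of the subunits of ribonucleotide reductase had opposite signs. Rrm2, the small subunit made in S phase, was at 1.58, 3.4, 5, 4.96 and 4.56 CPM in sham control and 10.03, 7.69, 6.95, 4.68 and 4.87 CPM in MOV control. Its log2 fold change was 0.86 ± 0.32 (SE, edgeR adjusted p = 0.184, voom adjusted p = 0.0484), and MOV control 4 and 5 were within the sham control range. Rrm1, the large subunit, was at 48, 46.7, 37.6, 33.2 and 47.5 CPM in sham control and 31.3, 28.3, 35.4, 29.95 and 38.5 CPM in MOV control. Rrm1 was the lowest of the S phase members with -0.35 ± 0.14 (SE, edgeR adjusted p = 0.216). Pcna was at 19.6, 30.3, 27.5, 36.5 and 31.3 CPM in sham control and 27.6, 29.9, 32.9, 32.4 and 25.5 CPM in MOV control, a difference of 0.07 ± 0.15 on the log2 scale (SE, edgeR adjusted p = 0.835) with MOV control inside the sham control range. Tyms, which makes thymidylate, was at 1.96, 2.14, 3.71, 6.11 and 2.34 CPM in sham control and 7.4, 4.42, 3.68, 1.77 and 2.54 CPM in MOV control and differed by 0.34 ± 0.43 (SE, edgeR adjusted p = 0.713). Tk1, a thymidine salvage kinase, differed by 0.26 ± 0.19 (SE).

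The proliferation mark Mki67, which coats mitotic chromosomes, was at 2.94, 9.63, 16.2, 21.3 and 7.94 CPM in sham control and 28, 19.8, 16.2, 8.72 and 7.12 CPM in MOV control. MOV control 1 was the only library above the sham control maximum of Mki67, and MOV control 4 and 5 were below sham control 2. The log2 fold change was 0.52 ± 0.47 (SE, edgeR adjusted p = 0.597). Top2a, the topoisomerase that untangles chromosomes, was at 0.754, 5.86, 13.7, 15.1 and 8.01 CPM in sham control and 20.8, 22.2, 16.5, 7.39 and 6.47 CPM in MOV control, with a log2 fold change of 0.81 ± 0.56 (SE, edgeR adjusted p = 0.466). In both genes sham control 1 was the lowest library.

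All 5 genes of the mitotic cyclins, Cdk1 and Foxm1 had a log2 fold change above 0, with a median of 0.63, and edgeR, DESeq2 and voom called none. The median was 0.38 without sham control 1, 0.40 without MOV control 1 and 0.97 without sham control 4, with all 5 above 0 each time. Ccnb1, which activates Cdk1 for mitosis, was at 0.754, 1.64, 1.72, 4.42 and 2.47 CPM in sham control and 5.11, 4, 1.92, 2.02 and 2.18 CPM in MOV control. Its log2 fold change was 0.52 ± 0.45 (SE, edgeR adjusted p = 0.58). Cdk1, the mitotic kinase, was at 0.302, 2.27, 5.38, 7.57 and 5.14 CPM in sham control and 8.96, 6.49, 7.1, 4.17 and 3.34 CPM in MOV control, a log2 fold change of 0.59 ± 0.55 (SE, edgeR adjusted p = 0.601). Sham control 1 and 2 of Cdk1 were below every MOV control library and sham control 3, 4 and 5 within the MOV control range.
Foxm1, a transcription factor of mitotic genes, was at 0.528, 0.945, 3.82, 5.14 and 3.45 CPM in sham control and 8.33, 5.07, 4.51, 1.01 and 1.74 CPM in MOV control, a log2 fold change of 0.63 ± 0.63 (SE, edgeR adjusted p = 0.634). Ccna2 and Ccnb2 differed by 0.84 ± 0.46 and 0.86 ± 0.53 (SE).

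The Polo and Aurora kinases and survivin held both ends of the mitotic members. Birc5 (survivin), a subunit of the chromosomal passenger complex, was at 0.829, 1.83, 3.87, 4.06 and 4.49 CPM in sham control and 13.8, 6.96, 5.29, 3.03 and 3.63 CPM in MOV control. It had the highest log2 fold change of all members, 1.17 ± 0.49 (SE, edgeR adjusted p = 0.227), which was 0.69 without MOV control 1. MOV control 4 and 5 of Birc5 lay within the sham control range. Plk1, a kinase of mitotic entry, was at 0.226, 1.26, 2.42, 1.88 and 1.63 CPM in sham control and 5.06, 4.25, 2.44, 2.15 and 1.89 CPM in MOV control, a log2 fold change of 1.14 ± 0.49 (SE, edgeR adjusted p = 0.243).
Aurkb, the kinase partner of survivin, was at 0.528, 1.2, 2.37, 1.82 and 2.02 CPM in sham control and 3.07, 2.32, 1.5, 1.96 and 1.74 CPM in MOV control and differed by 0.46 ± 0.40 (SE, edgeR adjusted p = 0.579). Aurka, the spindle pole kinase, was at 10.9, 7.05, 5.86, 6.36 and 9.96 CPM in sham control and 4.19, 4.42, 6.69, 4.42 and 5.96 CPM in MOV control. Aurka was the one mitotic member with a negative log2 fold change, -0.61 ± 0.24 (SE, edgeR adjusted p = 0.204), and its annotation overlaps that of Cstf1, so reads of both may be mixed.

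In the spindle checkpoint, which holds anaphase until chromosomes are attached, all 3 genes had a log2 fold change above 0. Bub1 was at 0.528, 1.64, 1.18, 2 and 0.326 CPM in sham control and 2.78, 1.93, 3.27, 0.569 and 0.654 CPM in MOV control, a difference of 0.76 ± 0.60 (SE, edgeR adjusted p = 0.533). Ttk, the kinase that starts the checkpoint, was at 0.0754, 0.252, 0.699, 0.968 and 1.5 CPM in sham control and 1.07, 0.773, 2.13, 1.01 and 0.363 CPM in MOV control, a difference of 0.66 ± 0.65 (SE, edgeR adjusted p = 0.63). Both were at 3.27 CPM or less in these libraries and their groups overlapped, and Bub1b differed by 0.32 ± 0.33 (SE).
Ube2c, of the anaphase-promoting complex partners, was at 4.52, 8.69, 13.8, 15.5 and 9.7 CPM in sham control and 24.3, 9.84, 17.3, 19 and 13.4 CPM in MOV control. Its log2 fold change was 0.73 ± 0.31 (SE, edgeR adjusted p = 0.239), with MOV control 1, 3 and 4 above all sham control libraries. Cdc20, which activates that complex, differed by 0.53 ± 0.52 (SE).

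Centromere proteins had a median log2 fold change of 0.61, or 0.40 without MOV control 1. Cenpf was at 0.452, 2.14, 2.9, 5.45 and 3.32 CPM in sham control and 6.14, 5.58, 3.68, 1.77 and 3.56 CPM in MOV control, a difference of 0.59 ± 0.50 (SE, edgeR adjusted p = 0.564), and Cenpa and Cenpe differed by 0.61 ± 0.38 and 0.75 ± 0.41 (SE). All 7 spindle motors and microtubule proteins had a log2 fold change above 0, with a median of 0.44. Without sham control 1 the count was 4 of 7 and the median 0.27, and without MOV control 1 they were 4 of 7 and 0.15. Kif11, the motor that separates spindle poles, was at 1.51, 3.02, 6.56, 8.47 and 5.34 CPM in sham control and 9.88, 9.41, 7.36, 7.84 and 7.2 CPM in MOV control. Only sham control 4 of Kif11 lay within the MOV control range, and its log2 fold change was 0.79 ± 0.36 (SE, edgeR adjusted p = 0.269).
Hmmr, a spindle assembly protein, was at 0.0754, 0.504, 1.77, 3.21 and 1.82 CPM in sham control and 6.57, 2.75, 1.04, 1.45 and 1.16 CPM in MOV control, a log2 fold change of 0.87 ± 0.72 (SE, edgeR adjusted p = 0.561) that was 0.15 without MOV control 1. Kif20a, Kif23, Prc1, Nusap1 and Tpx2 lay between 0.08 and 0.47.

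**Figure D2:**
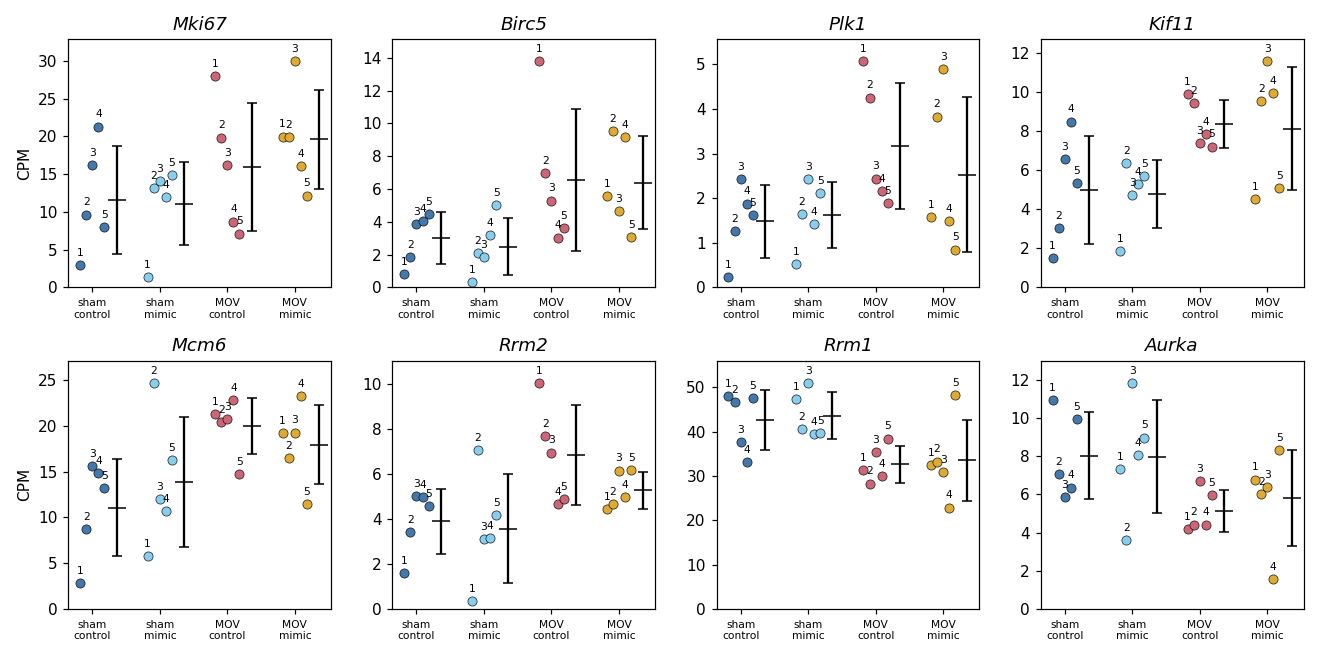
CPM of 8 members in each library of the 4 groups; points are libraries labelled with their replicate number, and bars give mean ± SD of 5 libraries. Mki67, Birc5, Plk1, Kif11, Mcm6 and Rrm2 have higher means in MOV control than in sham control, Rrm1 and Aurka lower ones, and the libraries overlap in all 8.

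Markers of other cell types are given beside these values. The 9 satellite cell and myoblast markers were Pax7, Myf5, Myod1, Myog, Mymk, Mymx, Chrna1, Myh3 and Cdh15, and whether fibres express them too was not measured here. All 9 had a log2 fold change above 0 between MOV control and sham control, with a median of 1.17. Of all genes 8116 of 14974 were above 0, with a median of 0.04. edgeR called none, 3 of 9 had an unadjusted p under 0.05 against 18.2% of all genes, and DESeq2 called 2 of 9, Pax7 and Chrna1, against 6.1% of all genes. Their summed level was 85 to 483 CPM in sham control and 299 to 966 CPM in MOV control, with overlap. Sign counts and medians of the other marker lists are not given for this comparison. The 16 leukocyte markers summed to 399 to 1510 CPM in sham control and 430 to 1296 CPM in MOV control, and the 9 fibro-adipogenic and fibroblast markers to 1195 to 11348 and 3416 to 12562 CPM, with Tcf21 at 0 in every group. MOV control 4 and 5, which had the lowest mitosis scores of their group, had fibroblast sums of 4898 and 3416 CPM against 11104 to 12562 CPM in MOV control 1, 2 and 3, and leukocyte sums of 517 and 430 CPM against 1067 to 1296 CPM. Their satellite cell and myoblast sums were 954 CPM, below only MOV control 1, and 299 CPM, the lowest of the group. Endothelial markers summed to 340 to 408 CPM in sham control and 190 to 389 CPM in MOV control, pericyte and smooth muscle markers to 445 to 522 and 225 to 477 CPM, and Schwann cell markers to 50.7 to 86.1 and 31.7 to 127 CPM. The 12 muscle fibre markers summed to 134084 to 218808 CPM in sham control, with a median of 159636, and 101762 to 162517 CPM in MOV control, with a median of 116973. The part of these cells and of the fibre RNA in the values of the members was not tested, and in bulk samples more cells of a type and more RNA per cell cannot be told apart.

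The same question was then put to the muscles given the mimic. The mitosis score was 0.069, 1.70, 1.82, 1.95 and 2.17 in sham mimic and 2.22, 2.63, 2.67, 1.33 and 1.60 in MOV mimic. The means were 1.54 ± 0.84 and 2.09 ± 0.61 (SD, n = 5 each), a difference of 0.55 against a pooled SD of 0.73. Without sham mimic 1 the difference was 0.18. The S phase score was 1.78, 2.93, 2.74, 2.72 and 2.80 in sham mimic and 3.04, 3.20, 3.19, 2.26 and 2.56 in MOV mimic, and the means differed by 0.26 against a pooled SD of 0.44. This S phase difference was 0.05 without sham mimic 1, 0.17 without MOV mimic 2, 0.40 without MOV mimic 4 and 0.44 with the median over the genes in place of the mean.

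Sham mimic 1 was the lowest of its group in 36 of 42 members. MOV mimic 4 had 0 counts of Ccne1, Cdc6, Bub1, Ttk and Cenpe, where 3 counts would be 0.213 CPM, and was the highest of its group in 8 members, among them Foxm1, Tk1, Mcm4 and Ube2c.

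Between MOV mimic and sham mimic 36 of 42 members had a log2 fold change above 0, with a median of 0.51 against 0.02 over 14918 genes tested. No member and no other gene was called by edgeR (0%). DESeq2 called no member, against 1.48% of all genes, and voom called no member, against 0.114% of all genes. An unadjusted p under 0.05 was seen for 8 of 42 members (19.0%), all of them higher, against 13.4% of all genes. The count was 5 (11.9%) without sham mimic 3, against 11% of all genes, and 13 (31.0%) without MOV mimic 5, against 21.1%, and the median was 0.34 without sham mimic 1. The number with such a p was 10 of 42 in DESeq2, against 15.2% of all genes, and 14 of 42 (33.3%) in voom, against 22.5%. No member had groups that did not overlap, which 2.84% of all genes did.

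Leaving out sham mimic 1 brought the log2 fold change closer to 0 in 36 of 42 members, moved it by over 1.5 times or across 0 in 18 and changed its sign in 2, Mcm2 and Bub1b. In S phase it became 0.29 for Mcm3, 0.22 for Mcm6, 0.087 for Pcna, 0.31 for Rrm2 and -0.38 for Tyms. In mitosis it became 0.23 for Top2a, 0.27 for Cdk1, 0.35 for Bub1, 0.19 for Ttk, 0.082 for Cdc20, 0.47 for Cenpe and 0.13 for Cenpf. It became -0.50 for Kif20a, 0.063 for Kif23, 0.26 for Prc1 and 0.057 for Tpx2.

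The other 9 libraries of this comparison each moved 1 to 12 members by over 1.5 times or across 0. Among those at 0.5 or more the values became 0.46 for Ccne1 and 0.52 for Cdt1 without MOV mimic 1, and 0.28 for Top2a, 0.33 for Ccnb1, 0.22 for Bub1 and 0.39 for Cenpe without MOV mimic 2. They became 0.21 for Cdk1 and 0.29 for Plk1 without MOV mimic 3, 1.00 for Rrm2 without sham mimic 2, and 0.78 for Top2a and 1.06 for Bub1 without sham mimic 5. In exact permutation tests 5 of the 21 members listed by role had an unadjusted p under 0.05, Mcm5 (0.0238), Birc5 (0.0397), and Mki67, Ube2c and Hmmr (0.0476 each). They were 23.8% of those listed, against 13.4% of all 14918 genes in the same test.

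Aurkb was at 0.367, 1.17, 0.812, 1.65 and 2.05 CPM in sham mimic and 4.35, 3.46, 4.21, 3.77 and 0.52 CPM in MOV mimic. Its log2 fold change of 1.47 ± 0.58 (SE, edgeR adjusted p = 0.325) was the highest of the members, with MOV mimic 5 within the sham mimic range and the other 4 above it. Birc5 was at 0.294, 2.1, 1.83, 3.16 and 5 CPM in sham mimic and 5.56, 9.53, 4.65, 9.17 and 3.05 CPM in MOV mimic, a log2 fold change of 1.41 ± 0.54 (SE, edgeR adjusted p = 0.32). Ccnb2, partner of Cdk1, differed by 1.43 ± 0.49 (SE, edgeR adjusted p = 0.29). Only MOV mimic 5 of Ccnb2 lay within the sham mimic range, at 2.66 CPM against a sham mimic maximum of 2.82 CPM.
Mcm5 was at 2.72, 6.2, 4.11, 4.99 and 5.39 CPM in sham mimic and 8.19, 8.78, 9.23, 8.46 and 5.26 CPM in MOV mimic, a log2 fold change of 0.81 ± 0.26 (SE, edgeR adjusted p = 0.285). Again MOV mimic 5 alone was within the sham mimic range. Ube2c was at 5.51, 12.9, 7.15, 8.34 and 10.2 CPM in sham mimic and 14.2, 12.6, 16.8, 25.1 and 8.97 CPM in MOV mimic, a log2 fold change of 0.86 ± 0.29 (SE, edgeR adjusted p = 0.29). Kif11 was at 1.84, 6.37, 4.72, 5.26 and 5.71 CPM in sham mimic and 4.5, 9.53, 11.6, 9.95 and 5.07 CPM in MOV mimic, a log2 fold change of 0.80 ± 0.36 (SE, edgeR adjusted p = 0.358), where MOV mimic 1 and 5 lay within the sham mimic range.

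Mki67 was at 1.4, 13.2, 14.1, 11.9 and 14.9 CPM in sham mimic and 19.98, 19.9, 29.9, 16.1 and 12.2 CPM in MOV mimic, a log2 fold change of 0.86 ± 0.44 (SE, edgeR adjusted p = 0.412). MOV mimic 5 alone of the MOV mimic libraries lay below the sham mimic maximum. Top2a was at 1.25, 12.4, 10.3, 10.4 and 17.5 CPM in sham mimic and 12.6, 22.5, 18.7, 9.81 and 8.19 CPM in MOV mimic, a log2 fold change of 0.51 ± 0.48 (SE, edgeR adjusted p = 0.661). Foxm1 was at 1.03, 3.57, 2.74, 4.1 and 2.37 CPM in sham mimic and 3.54, 5.56, 3.58, 10.9 and 1.95 CPM in MOV mimic, a log2 fold change of 0.92 ± 0.48 (SE, edgeR adjusted p = 0.42). The Foxm1 value of MOV mimic 4 was the highest of all 20 libraries, and without it the log2 fold change was 0.44.
Cdk1 was at 1.1, 3.04, 4.26, 5.88 and 6.6 CPM in sham mimic and 5.41, 7.52, 10.1, 1.42 and 4.48 CPM in MOV mimic. Ccnb1 was at 0.955, 1.4, 1.88, 2.45 and 1.8 CPM in sham mimic and 2.12, 4.58, 3.33, 1.92 and 0.975 CPM in MOV mimic. Neither separated by surgery, with log2 fold changes of 0.51 ± 0.50 and 0.64 ± 0.46 (SE). Plk1 was at 0.514, 1.64, 2.44, 1.43 and 2.12 CPM in sham mimic and 1.57, 3.83, 4.9, 1.49 and 0.845 CPM in MOV mimic, a log2 fold change of 0.67 ± 0.55 (SE, edgeR adjusted p = 0.62). Aurka was at 7.35, 3.62, 11.8, 8.07 and 8.98 CPM in sham mimic and 6.78, 6.02, 6.4, 1.56 and 8.32 CPM in MOV mimic, a log2 fold change of -0.42 ± 0.39 (SE, edgeR adjusted p = 0.664), and MOV mimic 4 was the lowest Aurka value of all libraries.

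Of the low mitotic members, Bub1 was at 0, 1.46, 1.22, 1.52 and 2.76 CPM in sham mimic and 1.97, 4.34, 2.7, 0 and 1.69 CPM in MOV mimic. Ttk was at 0.367, 1.11, 0.457, 1.74 and 1.15 CPM in sham mimic and 1.77, 1.45, 2.45, 0 and 0.52 CPM in MOV mimic. Cenpf was at 0.294, 2.45, 3.3, 3.12 and 4.87 CPM in sham mimic and 5.97, 4.11, 5.84, 1.07 and 1.17 CPM in MOV mimic. In all 3 the groups overlapped, and their log2 fold changes were 0.66 ± 0.93, 0.39 ± 0.81 and 0.41 ± 0.63 (SE). Hmmr was at 1.32, 1.64, 1.88, 1.83 and 2.89 CPM in sham mimic and 2.23, 3.41, 2.95, 3.7 and 1.95 CPM in MOV mimic, a log2 fold change of 0.61 ± 0.36 (SE, edgeR adjusted p = 0.489).

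In S phase, Ccne1 was at 0, 2.16, 1.62, 0.758 and 0.833 CPM in sham mimic and 5.46, 2.99, 1.76, 0 and 1.04 CPM in MOV mimic, a log2 fold change of 1.11 ± 0.98 (SE, edgeR adjusted p = 0.644). Ccne2 was at 7.05, 3.74, 6.14, 6.6 and 6.35 CPM in sham mimic and 6.02, 5.37, 5.53, 8.53 and 8.19 CPM in MOV mimic, a log2 fold change of 0.20 ± 0.25 (SE). The spread of Ccne1 in MOV mimic, from 0 to 5.46 CPM, was the widest of its groups. Mcm6 was at 5.8, 24.7, 12, 10.7 and 16.3 CPM in sham mimic and 19.2, 16.5, 19.3, 23.2 and 11.5 CPM in MOV mimic, a log2 fold change of 0.41 ± 0.32 (SE). Cdc6 was at 0.808, 1.46, 0.964, 1.6 and 1.22 CPM in sham mimic and 0.961, 1.96, 1.51, 0 and 0 CPM in MOV mimic, a log2 fold change of -0.40 ± 0.91 (SE). Sham mimic 2 had the highest Mcm6 of all libraries.
Rrm2 was at 0.367, 7.07, 3.1, 3.16 and 4.17 CPM in sham mimic and 4.45, 4.67, 6.15, 4.98 and 6.17 CPM in MOV mimic, a log2 fold change of 0.60 ± 0.49 (SE, edgeR adjusted p = 0.618). Rrm1 was at 47.4, 40.5, 50.9, 39.5 and 39.6 CPM in sham mimic and 32.4, 33.3, 30.9, 22.9 and 48.2 CPM in MOV mimic, a log2 fold change of -0.34 ± 0.17 (SE, edgeR adjusted p = 0.41). As in the control muscles Rrm1 had the lower mean after MOV, though MOV mimic 5 was among the highest libraries. Pcna was at 20.4, 25.1, 29.2, 32.3 and 36.8 CPM in sham mimic and 30.5, 35.2, 30.1, 32.1 and 31.1 CPM in MOV mimic, a log2 fold change of 0.18 ± 0.15 (SE). Tyms was at 0.514, 3.97, 5.28, 3.61 and 6.8 CPM in sham mimic and 2.98, 3.41, 8.35, 0.995 and 2.53 CPM in MOV mimic, a log2 fold change of -0.10 ± 0.60 (SE), and in both genes the groups overlapped.

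**Figure D3:**
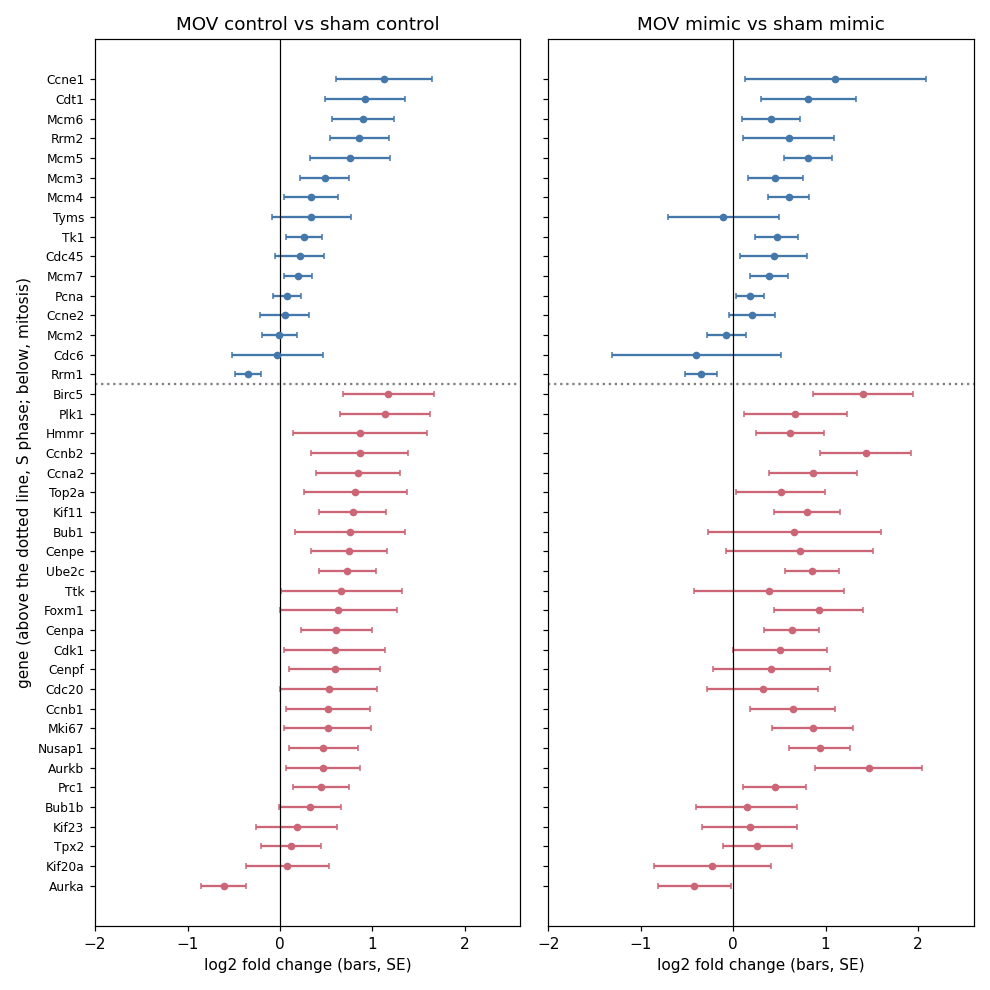
Log2 fold change of each of the 42 members between MOV control and sham control (left) and between MOV mimic and sham mimic (right), from edgeR; points are estimates, bars are SE, and the members of S phase stand above the dotted line and those of mitosis below. Most points lie to the right of 0, 38 of 42 on the left panel and 36 of 42 on the right, and none passed an adjusted p of 0.05.

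Beside these members the 16 leukocyte markers summed to 434 to 1445 CPM in sham mimic and 739 to 2093 CPM in MOV mimic. Of 15 tested 13 were above 0, with a median log2 fold change of 0.63, against 7731 of 14918 genes and a median of 0.02. MOV mimic 4, with the lowest mitosis score of its group, had a leukocyte sum of 1561 CPM, below only MOV mimic 2. The satellite cell and myoblast markers summed to 109 to 1214 CPM in sham mimic, with the highest value in sham mimic 2, and 106 to 840 CPM in MOV mimic, with overlap. Sign counts and medians of these and of the following lists are not given here. Endothelial markers summed to 369 to 490 CPM in sham mimic and 283 to 323 CPM in MOV mimic and the pericyte and smooth muscle markers to 453 to 583 and 309 to 387 CPM, lower after MOV without overlap in both. Fibroblast markers summed to 1731 to 10586 CPM in sham mimic and 5611 to 10982 CPM in MOV mimic, and Schwann cell markers to 57.3 to 72.7 and 35.8 to 65.2 CPM. The muscle fibre markers summed to 135609 to 215190 CPM in sham mimic, with a median of 153951, and 84918 to 145981 CPM in MOV mimic, with a median of 113675. The part of these cells and of the fibre RNA in the values of the members was not tested.

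The comparison of mimic with control asked whether the proliferation genes differed between muscles given the miR-1a-3p mimic virus and the control virus. The paper reports no increase of miR-1 with the mimic after sham surgery, and a smaller fall of miR-1 after MOV. The sham comparison is therefore one of viruses and not of raised miR-1. The level of miR-1 was not measured in these libraries. After MOV the mitosis score differed by -0.04 between MOV mimic and MOV control and the S phase score by -0.06, against pooled SDs of 0.58 and 0.35. With the median over the genes in place of the mean the S phase difference was 0.30. With MOV mimic 4 left out the differences were 0.15 and 0.09, and with MOV control 5 left out they were -0.20 and -0.15. Of the members 21 of 42 had a log2 fold change above 0, with a median of 0.01, and this count ran from 16 without MOV control 4 or 5 to 33 without MOV control 1.

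No member was called by edgeR (0% of 15220 genes), by DESeq2 (0.0197% of all genes) or by voom with quality weights (0% of all genes). None had an unadjusted p under 0.05 in edgeR or DESeq2 and 1 had in voom, against 4.21% of all genes in edgeR, 5.35% in DESeq2 and 8.86% in voom. The edgeR count was 3 (7.14%) without MOV mimic 5, against 5.34% of all genes. No member listed by role had an exact permutation p under 0.05, against 4.53% of all genes. No member had groups that did not overlap, against 0.756% of all genes. Aurkb was the highest with 0.62 ± 0.50 and Mcm5 next with 0.62 ± 0.32 (SE, edgeR adjusted p = 0.999 for both). Mcm4 was at 7.16, 10.7, 11.4, 4.74 and 6.54 CPM in MOV control and 7.59, 12.9, 13.6, 14.8 and 11.3 CPM in MOV mimic, a log2 fold change of 0.57 ± 0.27 (SE). Mki67 differed by 0.28 ± 0.35 and Cdc6, the lowest, by -0.48 ± 0.98 (SE), with Cdc6 at 0 counts in MOV mimic 4 and 5. With 1 library left out Mki67 ran from 0.080 without MOV mimic 3 to 0.59 without MOV control 1, and Cdc6 from -1.002 without MOV mimic 2 to -0.17 without MOV mimic 4 or 5. Leukocyte markers had a median log2 fold change of 0.62 in the same comparison, with 14 of 15 above 0, against 7496 of 15220 genes. Of these markers 5 had an unadjusted p under 0.05 and none was called, and their part was not tested.

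After sham surgery the mitosis score of mimic and control differed by 0.003 and the S phase score by 0.04, against pooled SDs of 0.86 and 0.45. The mitosis difference was -0.35 without sham control 1, 0.37 without sham mimic 1 and 0.02 without both. The S phase difference was -0.14 without sham control 1, 0.25 without sham mimic 1 and 0.19 with the median over the genes. Of the members 21 of 42 were above 0, from 15 without sham control 1 to 31 without sham mimic 1. None was called by edgeR, DESeq2 or voom, each of which called 0% of 14746 genes. None had an unadjusted p under 0.05 in edgeR or DESeq2 and 2 (4.76%) had in voom. The shares of all genes were 1.72% in edgeR, 1.92% in DESeq2 and 3.77% in voom. No member listed by role had an exact permutation p under 0.05, against 2.57% of all genes, and no member of the 42 had groups that did not overlap, against 0.359% of all genes. Mcm5 was the highest with 0.55 ± 0.39, Ccnb2 the lowest with -0.43 ± 0.48, and Mki67 differed by -0.08 ± 0.55 (SE). Mcm5 was 0.36 without sham control 1 and 0.94 without sham control 4, and Ccnb2 was -0.11 without sham control 4.

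Whether the mimic difference itself differed between MOV and sham was tested as an interaction over 20 libraries. No member was called by edgeR (0% of 16166 genes), by DESeq2 (1 of 16166 genes) or by voom (0 of 16166 genes). None had an unadjusted p under 0.05 in edgeR, against 2.64% of all genes. The estimates ran from -0.49 ± 0.49 for Mcm6 to 1.01 ± 0.71 for Aurkb (SE).

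**Figure D4:**
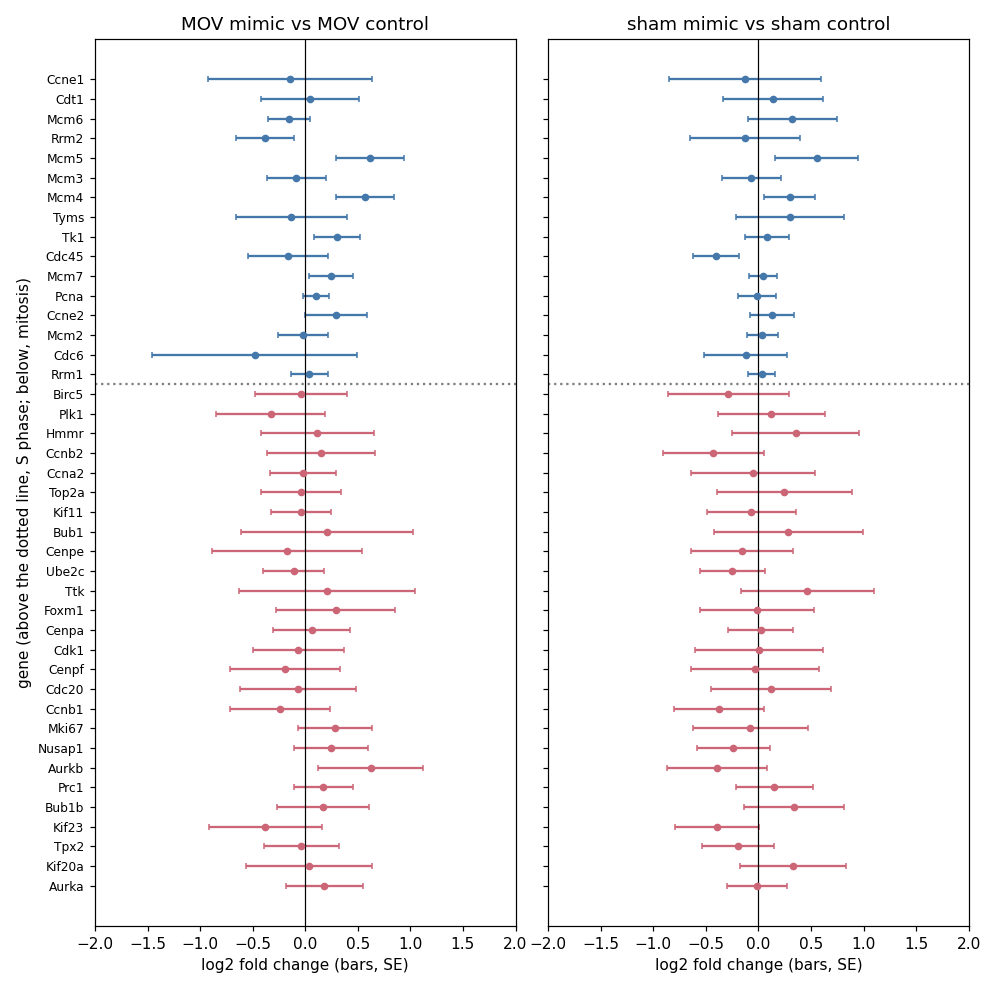
Log2 fold change of each of the 42 members between mimic and control virus after MOV (left) and after sham surgery (right), from edgeR; points are estimates, bars are SE, and S phase members stand above the dotted line. The points scatter around 0 in both panels, 21 of 42 above it in each.

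Other genes of the cell cycle were taken from 3 lists. Of 36 further mitotic genes 35 had a log2 fold change above 0 between MOV control and sham control, with a median of 0.61, and of 25 further replication genes tested 17 were above 0, with a median of 0.27. Without sham control 1 the mitotic list had 31 of 36 above 0 and a median of 0.37 and the replication list a median of 0.18, and without MOV control 1 the mitotic list had 31 of 36 and 0.32. edgeR called none of either list. Unadjusted p values under 0.05 were seen for 4 genes of each, 11.1% and 16%, below the 18.2% of all genes. Of 24 regulators of the cycle 17 were above 0, with a median of 0.26, 6 with an unadjusted p under 0.05 (25%) and none called by edgeR. The median of the regulators was 0.15 without sham control 1 and 0.084 without MOV control 1. With 1 library left out the counts of unadjusted p under 0.05 ran from 2 to 7 in the mitotic and in the replication list and from 4 to 9 in the regulators, and without MOV control 5 they were 7, 7 and 9, against 22.6% of all genes.

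DESeq2 called 5 of the 85 genes of these lists in that comparison (5.88%), no larger a share than the 6.1% of all genes, and they were named after their values were seen. Cdkn1a, the inhibitor p21 that arrests the cycle, was at 20.9, 25.8, 65.3, 47.0 and 26.1 CPM in sham control and 116, 91.3, 98.8, 188 and 53.7 CPM in MOV control. Its edgeR log2 fold change was 1.61 ± 0.36 (SE, edgeR adjusted p = 0.0630), and MOV control 5 alone lay within the sham control range. Rb1, which restrains S phase entry, and Nuf2, of the kinetochore, were also higher by DESeq2, with edgeR log2 fold changes of 0.87 ± 0.22 and 1.72 ± 0.58 (SE). Gmnn, the inhibitor of Cdt1, and Rbl2, a relative of Rb1, were lower by DESeq2, with edgeR log2 fold changes of -0.65 ± 0.21 and -0.61 ± 0.18 (SE).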

How the data were processed

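RNA sequencing of 20 plantaris muscles, 5 per group, was analysed from raw counts per Ensembl gene, which the authors deposited without normalisation in one table for the control muscles and one for the mimic muscles. According to the submitters' processing notes, reads were checked with FastQC 0.11.9, trimmed with cutadapt 4.4 under Trim Galore 0.6.10, aligned to GRCm38 with HISAT2 2.0.5 and counted with featureCounts 1.5.0-p3, and DESeq2 1.34.0 was used. The annotation release and strand setting are not given in the sources used here.

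Counts were tested as deposited with the quasi-likelihood test of edgeR 4.0.16 in R 4.3.3, after filterByExpr and TMM scaling, on the 10 libraries compared, or on 20 for the interaction, with Benjamini-Hochberg adjustment over all genes tested and a threshold of 0.05. Scores are means of log2 CPM (TMM over 20 libraries, prior count 2) and carry no test. Exact two-sided permutation tests of log2 CPM over 252 arrangements were made for all 42 members and for all genes tested. They are read for the 21 members listed by role and are not given for Rrm1 and Aurka, which were chosen by the same comparison. Because nothing in the labels says which libraries share a mouse, p-values measure the spread between libraries. Alternatives were DESeq2 1.42.0, voom with quality weights in limma 3.58.1, DESeq2 size factors, no filter, all 20 libraries in the fit, a replicate block and leaving out each library. For the scores they were also a prior count of 0.5 and the median over members. The edgeR, DESeq2 and voom fits of MOV control against sham control were tested on simulated counts. The other comparisons and settings were not. No pair of libraries within a group agreed within sampling noise.

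Total counts ran from 12036360 to 23056525 per library. A gene at 0 counts could lie at up to 3 counts, which covers counting error only. The members and lists were chosen with earlier results of these data known. Values in each library were given for 23 members: 21 listed for their roles, and the highest and lowest of S phase and mitosis between MOV control and sham control. Mcm6 and Mcm4, and the non-members called by DESeq2 alone, were added after their values were seen. Promoter sequences and overlaps between genes came from RefSeq for GRCm38.p6, and exon lengths from the GENCODE vM1 annotation of GRCm38. Figures were drawn with matplotlib 3.10.9.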

Additional observations from a re-analysis of the deposited data

Results flagged for a closer look

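In groups of 5 libraries, a lowest or highest library was marked when its gap to the next one exceeded 0.71 of the range of the group. This was tested for both scores and 23 members in 4 groups, 100 in all, where chance marks about 1 in 20, and 14 were marked, each for the lowest library and each in log2 CPM.

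Sham mimic 1 accounted for 8 of them. Its S phase score was 1.78, with the next library at 2.72, and its mitosis score was 0.069, with the next at 1.70. Mki67 was at 0.60, Top2a at 0.45, Tyms at -0.67, Bub1 at -3.12, Cenpf at -1.29 and Kif11 at 0.96 in this library. Sham mimic 2 was low in Ccne2, at 1.95, and sham control 1 in Cdc6, at -1.02.

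In MOV mimic, library 5 was low in Mcm5, at 2.43 with the next at 3.05, and in Aurkb, at -0.66 with the next at 1.84. Library 4 was low in Bub1, at -3.12, where it had 0 counts, and in Aurka, at 0.75 with the next at 2.62.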

How the results depend on the processing

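No member was called in any of the 5 comparisons under whichever of these was run for it: DESeq2, DESeq2 size factors, no filter, all 20 libraries in the fit, a replicate block or with any library left out. Voom with quality weights called 2 members between MOV control and sham control, Mcm6 (log2 fold change 0.97) and Rrm2 (0.96), against 946 of 14974 genes (6.32%). In that comparison DESeq2 called 1 of the further replication genes, 1 further mitotic gene and 3 regulators, voom called 3, 1 and 3, and the fit with no filter called 2 regulators, against 388 of 28224 genes (1.37%). The S phase score difference between MOV mimic and MOV control was 0.30 with the median over members, against -0.06. Leaving out both sham libraries numbered 1 together was chosen after seeing the data. The causes of these changes were not tested.

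With 1 library left out, the log2 fold change between MOV control and sham control changed sign for Ccne2 (-0.14 to 0.20), Cdc6 (-0.34 to 0.17), Mcm2 (-0.10 to 0.14), Pcna (-0.030 to 0.17), Tyms (-0.029 to 0.69), Kif20a (-0.093 to 0.31), Kif23 (-0.13 to 0.36) and Tpx2 (-0.16 to 0.32). Between MOV mimic and sham mimic it did so for Mcm2 (-0.19 to 0.051), Tyms (-0.66 to 0.16), Bub1b (-0.13 to 0.36), Cdc20 (-0.0024 to 0.87) and Kif20a (-0.54 to 0.19). Between sham mimic and sham control it changed sign for 26 of 42 members, among them Mki67 (-0.32 to 0.28), and between MOV mimic and MOV control for 26 of 42. Voom gave Tpx2 -0.12 between MOV mimic and sham mimic and Mki67 0.070 between sham mimic and sham control.

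The labels share replicate numbers between groups without tying them to mice. Between control and mimic, libraries with equal numbers had correlated deviations from their group means. The correlations averaged 0.34 after sham surgery (0.018 to 0.83) and 0.27 after MOV (0.079 to 0.45). Libraries with unequal numbers averaged -0.069 and -0.063, and 2 of 5 and 3 of 5 libraries correlated best with their own number. Between sham and MOV, equal numbers averaged -0.12 in control and -0.13 in mimic. Sham and MOV surgery were done on different mice, so a replicate block across surgeries joins libraries of different mice. With the replicate block DESeq2 called 722 genes against 913 between MOV control and sham control and 116 against 221 between MOV mimic and sham mimic. Between MOV mimic and MOV control, where each mouse gave a muscle to both groups, it called 127 against 3. It called 0 members in each comparison. In edgeR with the block 2 of 42 members had an unadjusted p under 0.05 between MOV control and sham control, against 14.8% of all genes, and 7 of 42 between MOV mimic and sham mimic, against 9.34%. Between MOV mimic and MOV control 2 of 42 had such a p in edgeR with the block, against 7.23%, and 2 of 42 in DESeq2, against 8.81%. The lowest member with the edgeR block was at -1.19 between MOV mimic and MOV control and at -1.16 between MOV mimic and sham mimic. With the block Ccne2 differed by -0.00896 in edgeR and -0.018 in DESeq2 between MOV control and sham control. The part of depth in these values was not tested.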
